A study of Mus musculus with 9 samples.

Results

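Selenoproteins are proteins that carry selenocysteine, the selenium analogue of cysteine, and their mRNAs encode it with UGA, a codon that elsewhere ends translation. The genes described here are Gpx1, Gpx4, Txnrd1, Txnrd2, Selenok, Selenof, Selenot, Selenow, Selenoh and Msrb1, taken from a count table by matching NCBI Gene numbers to these mouse symbols. All 10 were among the 27179 gene identifiers of the table and among the 13129 genes with enough reads to be tested. RefSeq annotates a selenocysteine codon in 24 mouse genes, which are these 10 and 14 others.

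RNA immunoprecipitation sequencing (RIP-seq) was used to ask which RNAs come down with the phosphorylated form of the RNA helicase UPF1 (p-UPF1) in activated B cells. All libraries came from CD43-negative splenic B cells of wild-type mice, whose age the labels do not give, stimulated for 72 h with CD40L (5 μg/mL; an anti-CD40 antibody according to the methods), anti-IgM (10 μg/mL) and IL-4 (20 ng/mL). The 3 groups of 3 libraries differ only in the RNA taken, which was that of the whole lysate (Input), of a precipitate with normal rabbit IgG (IgG) or of a precipitate with an antibody against p-UPF1. Total counts ran between 19873687 and 24945286 for Input, 17372510 and 18550508 for IgG, and 23251890 and 24802119 for p-UPF1. The labels do not say that the 3 libraries of a group came from separate animals or cultures, so P values measure the spread between these libraries, which may be technical. The study's statistics section calls the data points in its graphs independent biological replicates, without naming these libraries. Because the stimulated cells had no unstimulated counterpart among these libraries, all values describe activated cells alone.

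Selenocysteine is placed at UGA when a hairpin in the 3′ untranslated region, the SECIS element, is bound by SECISBP2, which brings in the elongation factor EEFSEC and the selenocysteine tRNA. Where this fails, the same UGA is read as a stop. Nonsense-mediated mRNA decay (NMD) recognises a stop as premature mostly when an exon junction lies more than about 50 nucleotides downstream, and UPF1 is phosphorylated on the RNAs that are being committed to decay. When selenium is short, some selenoprotein mRNAs, that of Gpx1 among them, are known to be degraded in this way, while others are spared. In B cells Gpx4, which detoxifies lipid peroxides in membranes, is known to be needed by innate-like subsets.

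The codon at issue and its surroundings are shown for all 10 mRNAs, since its place relative to the exon junctions is what NMD would read. Each line gives 30 bases of the spliced RefSeq Select mRNA, 5′ to 3′ in the sense of transcription and with T for U, and the capitals mark the selenocysteine codon.
Gpx1: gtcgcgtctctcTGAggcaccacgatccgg
Gpx4: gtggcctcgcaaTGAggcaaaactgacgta
Txnrd1: cagtctggctgcTGAggttaagccccagtg
Txnrd2: gtgactggttgcTGAggctaagtcaccatc
Selenok: atggctggtggaTGAggaaggtaaatgtct
Selenof: gaagtctgcggaTGAaaattggggaggttc
Selenot: atttgtgtatccTGAgggtaccggcgggtg
Selenow: tattgtggagctTGAggctataagcccaag
Selenoh: cattgtacgagcTGAcgcgtgtacggccgc
Msrb1: caatcaagattcTGAatatttagcagctca

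On GRCm38 (mm10) these codons lie in coding exons on the plus strand at chr9:108339451-108339453 (Gpx1), chr10:80054737-80054739 (Gpx4), chr10:82896037-82896039 (Txnrd1), chr16:18477772-18477774 (Txnrd2), chr14:29973440-29973442 (Selenok), chr3:144590645-144590647 (Selenof), chr3:58585238-58585240 (Selenot) and chr17:24740158-24740160 (Msrb1). Those of Selenow (chr7:15920464-15920466) and Selenoh (chr2:84670381-84670383) are on the minus strand. The base after the codon, which is known to affect how well a stop terminates, was G in 7 of the 10 mRNAs, A in Selenof and Msrb1 and C in Selenoh. Selenow also ends on a TGA, whereas the annotated stops of the other 9 are TAA or TAG.

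The codon sits early in some of these proteins and at the very end of others. It encodes residue 13 of 88 in Selenow, 38 of 116 in Selenoh, 47 of 201 in Gpx1 and 49 of 195 in Selenot. In the thioredoxin reductases it is the last residue but one, at 498 of 499 in Txnrd1 and 526 of 527 in Txnrd2, and in Selenok it is residue 92 of 94. In 8 of the 10 mRNAs the UGA lay more than 50 nucleotides before the last exon junction, by 470 in Selenot, 342 in Gpx4, 266 in Selenoh, 243 in Selenow, 105 in Gpx1, 83 in Txnrd2, 78 in Selenof and 66 in Msrb1. The exceptions were Selenok, with the UGA 5 nucleotides before that junction, and Txnrd1, with the UGA in exon 15 of 15. In Txnrd2 the annotated stop itself lies 77 nucleotides before the last junction.

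**Figure D1:**
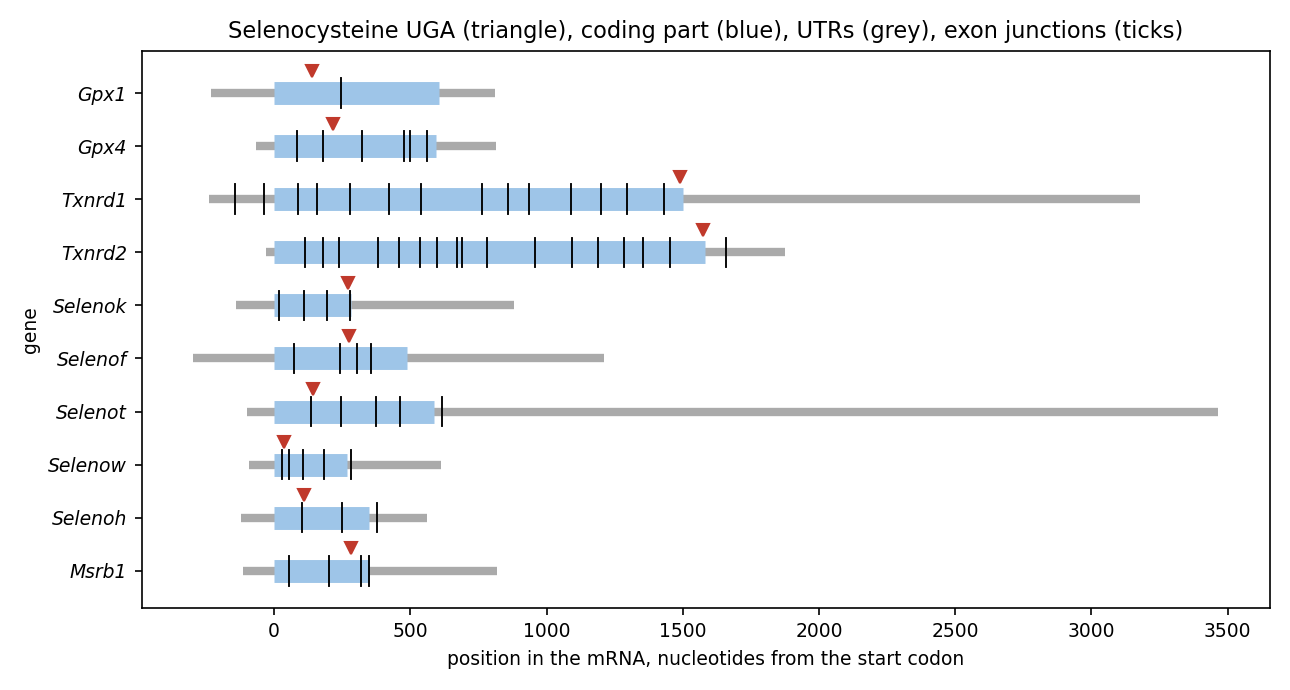
Maps of the 10 mRNAs drawn to scale from RefSeq Select transcripts, with the coding part, the exon junctions and the selenocysteine UGA marked. The horizontal axis counts nucleotides from the start codon. In Txnrd1 the UGA lies after the last junction and in Selenok 5 nucleotides before it, while in the other 8 mRNAs it lies 66 to 470 nucleotides before it.

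The selenoprotein mRNAs were recovered less with p-UPF1 than in either reference, with the exception of Selenow. Values are CPM (read counts relative to the library total) scaled by TMM factors, so each is relative to the typical RNA of its library, and log2 fold changes (log2FC) come from edgeR's quasi-likelihood test with P values adjusted over all genes tested. Over IgG, 9 of the 10 were lower and 1, Selenow, was higher at an adjusted P under 0.05, where 42.2% of all genes tested were lower and 40.4% higher. Over Input, 9 were lower, none was higher and Selenow did not pass, where 42.6% of all genes were lower and 40.8% higher. The median log2FC of the 10 was -1.33 over IgG and -1.68 over Input, and that of all genes tested was -0.03 in both. The 2 comparisons share the p-UPF1 libraries.

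None of the 10 met the criteria by which the study's methods define p-UPF1-bound RNAs. A log2FC of at least 1 over IgG with an adjusted P under 0.05 was met by 22.2% of all genes tested, a log2FC of at least 2 over Input by 6.31%, and both by 6.25%. The highest values among the 10 were those of Selenow, at 0.17 over IgG and -0.09 over Input. Since no member reached either fold minimum, the count was 0 also at an unadjusted P under 0.05 and with DESeq2 and limma-voom. The precipitate did hold RNAs known as NMD substrates, with Smg5, itself an NMD factor, at a log2FC of 2.62 over IgG (SE 0.04, adjusted P = 1.02e-17) and Upf1 at 2.08 (SE 0.04, adjusted P = 3.98e-17).

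Together the 10 genes took 0.105% ± 0.000707 of all counts in Input, 0.0849% ± 0.00231 with IgG and 0.0354% ± 0.000152 with p-UPF1 (SD, n = 3 libraries each). This share uses no scaling factor, and every p-UPF1 library lay below every other library. The methods describe Input as a part of the lysate, with the rest going to the precipitates. As described there, the groups compare fractions of RNA from lysed cells and not populations of cells. The B cell markers Cd79a, Cd79b, Ms4a1 and Pax5 were all detected in Input, at 269 ± 5.08, 1229 ± 1.51, 725 ± 12.7 and 58.0 ± 1.67 CPM (SD, n = 3). With p-UPF1 they read 32.8 ± 0.304, 580 ± 26.9, 437 ± 18.7 and 182 ± 9.89 CPM, so Pax5 lay above its Input level and the other 3 below. The 4 T cell markers summed to at most 0.917 CPM and the 2 erythroid markers in the table to at most 0.858 CPM in any library, while the 5 myeloid markers summed to between 57.2 and 139 CPM, nearly all of it Adgre1. The part of other cells in the members' levels in the lysate was not tested.

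**Figure D2:**
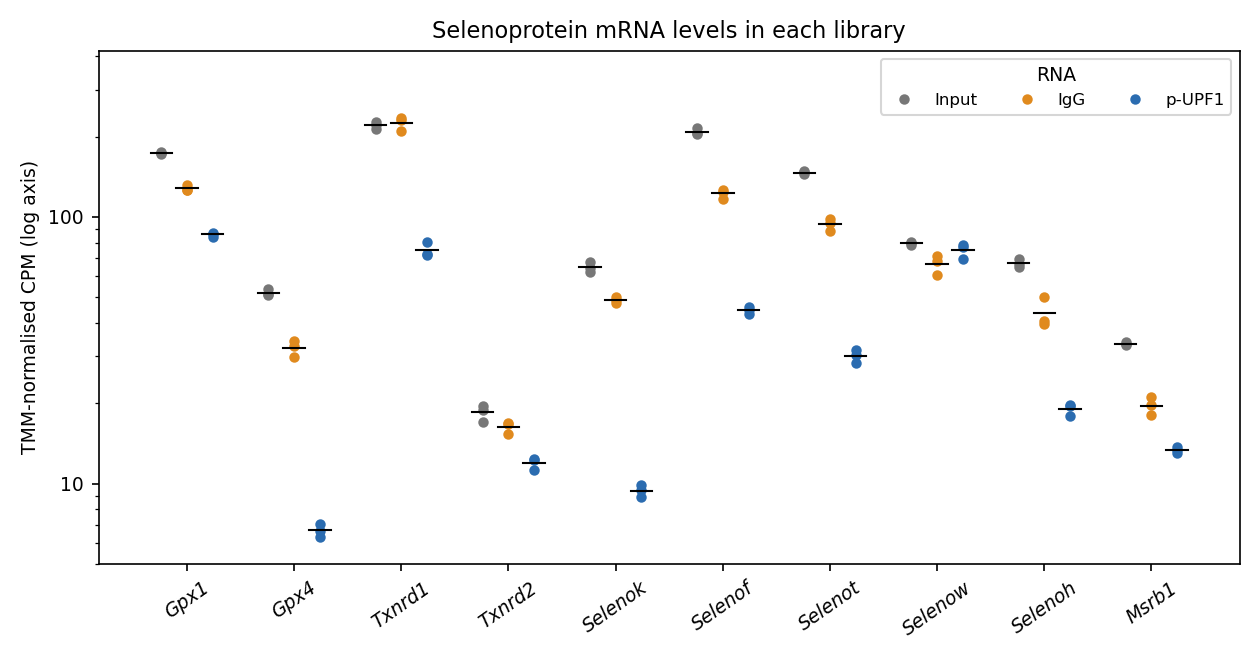
Normalised CPM (log axis) of the 10 selenoprotein genes in each of the 9 libraries, coloured by group, with 1 point per library. For 9 genes the p-UPF1 points lie below all IgG and Input points, and for Selenow they lie between 69.8 and 78.3 CPM and overlap the IgG points. Among all genes tested 42.2% were called lower over IgG and 42.6% over Input, and the share with such separation was not counted.

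Levels in the lysate differed widely between the 10 genes. Per kilobase of the RefSeq Select mRNA, Gpx1 was highest in Input at 166 ± 1.77 CPM per kb, followed by Selenof at 138 ± 4.13, Selenow at 113 ± 1.52 and Selenoh at 97.7 ± 3.61 (SD, n = 3). Txnrd1 at 64.6 ± 1.95 and Selenok at 63.5 ± 2.63 did not differ beyond their spread, and Gpx4 came close to them at 59.0 ± 1.49. Selenot at 41.1 ± 0.57, Msrb1 at 35.8 ± 0.51 and Txnrd2 at 9.72 ± 0.73 CPM per kb were lowest. In the p-UPF1 libraries Selenow was highest at 106 ± 6.56 CPM per kb, and Gpx4 at 7.58 ± 0.45 and Txnrd2 at 6.28 ± 0.31 were lowest. The length used bears on this order, since per kilobase of all merged exons of the gene Txnrd1 read 54.9, Gpx4 35.5 and Msrb1 25.6 CPM per kb in Input, and Gpx4 was the lowest in p-UPF1 at 4.56.

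The glutathione peroxidases use glutathione to reduce peroxides, Gpx1 chiefly hydrogen peroxide in the cytosol and Gpx4 the lipid hydroperoxides of membranes. In the libraries lettered C, B and A, in that order here and in what follows, Gpx4 read 6.30, 7.09 and 6.66 CPM with p-UPF1, against 32.7, 34.2 and 29.97 with IgG and 53.5, 51.0 and 51.6 in Input. The groups did not overlap, and every p-UPF1 value was far below the lowest IgG value. Gpx4 was lower with p-UPF1 by a log2FC of -2.27 over IgG (SE 0.08, adjusted P = 8.01e-14), 4.83-fold, and by -2.96 against Input (SE 0.08, adjusted P = 1.36e-15), 7.78-fold. Of all genes tested, 4.41% had a log2FC at or below that of Gpx4 over IgG and 3.24% over Input.

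Gpx1, the peroxidase mRNA best known as an NMD substrate, was also lower but by much less. It read 84.4, 86.6 and 86.9 CPM with p-UPF1, against 126, 132 and 126 with IgG and 174, 176 and 172 in Input, again with no overlap between groups. Its log2FC was -0.58 over IgG (SE 0.04, adjusted P = 9.64e-10) and -1.02 against Input (SE 0.04, adjusted P = 3.58e-13). About 33.2% of all genes tested lay at or below it over IgG. RefSeq lists 3 curated coding transcripts for Gpx1, of which 2 hold the selenocysteine codon, and gene counts do not separate them.

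The thioredoxin reductases pass electrons from NADPH to thioredoxin, Txnrd1 in the cytosol and Txnrd2 in mitochondria. Txnrd1 read 80.4, 72.5 and 72.0 CPM with p-UPF1, against 235, 231 and 211 with IgG and 221, 227 and 214 in Input. Input and IgG overlapped and every p-UPF1 library lay far below both. The log2FC was -1.59 over IgG (SE 0.05, adjusted P = 5.57e-14) and -1.56 against Input (SE 0.05, adjusted P = 5.82e-14). Txnrd2, the lowest of the 10 per kilobase in Input, read 12.4, 11.3 and 12.2 CPM with p-UPF1, against 15.4, 16.8 and 16.8 with IgG and 17.0, 19.6 and 18.9 in Input. All 3 p-UPF1 libraries lay below the others, and the difference was the smallest among the 9 lower genes, at -0.45 over IgG (SE 0.09, adjusted P = 0.000203) and -0.63 against Input (SE 0.09, adjusted P = 4.35e-06). Txnrd1 overlaps the lncRNA Gm38560 on the opposite strand and Eid3 on its own, so reads in these stretches may be uncertain because the use of strand in counting is not stated.

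Selenok, Selenof and Selenot are proteins of the endoplasmic reticulum, Selenok a small membrane protein that assists protein palmitoylation, Selenof a partner of the glycoprotein folding sensor and Selenot a membrane-anchored protein with a thioredoxin-like fold. All 3 were strongly lower with p-UPF1. Selenok read 9.47, 9.84 and 8.93 CPM with p-UPF1, against 47.4, 50.2 and 48.8 with IgG and 64.2, 62.3 and 67.6 in Input. Its log2FC over IgG, -2.37 (SE 0.07, adjusted P = 4.66e-15), was the lowest of the 10, a 5.18-fold difference, and over Input it was -2.78 (SE 0.06, adjusted P = 4.08e-16).

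Selenof read 45.9, 44.8 and 43.3 CPM with p-UPF1, against 124, 127 and 117 with IgG and 204, 216 and 207 in Input, a log2FC of -1.46 over IgG (SE 0.05, adjusted P = 3.30e-14) and -2.23 against Input (SE 0.05, adjusted P = 1.29e-16). Selenot read 31.8, 30.3 and 28.3 CPM with p-UPF1, against 97.8, 94.9 and 88.8 with IgG and 147, 148 and 144 in Input, a log2FC of -1.64 (SE 0.05, adjusted P = 4.24e-14) and -2.28 (SE 0.05, adjusted P = 4.54e-16). In both genes the 3 groups were fully separated, in the order Input, IgG, p-UPF1. Pseudogenes named for Gpx4, Selenok and Selenot number 11 in RefSeq, and 1 of them is in the table, with 10 counts in all. Reads of these 3 genes could therefore have been split or lost, and their levels are uncertain to that extent.

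Selenow, Selenoh and Msrb1 are small redox proteins. Selenow has a thioredoxin-like fold, Selenoh a similar fold and a place in the nucleus, and Msrb1 reduces one stereoisomer of oxidised methionine in proteins. Selenoh read 17.9, 19.7 and 19.6 CPM with p-UPF1, against 39.8, 50.3 and 40.7 with IgG and 66.4, 69.6 and 64.8 in Input, a log2FC of -1.19 over IgG (SE 0.08, adjusted P = 1.01e-09) and -1.81 against Input (SE 0.08, adjusted P = 2.15e-12). Msrb1 read 13.4, 13.0 and 13.8 CPM with p-UPF1, against 18.1, 21.1 and 19.7 with IgG and 34.0, 33.1 and 33.4 in Input, a log2FC of -0.55 (SE 0.08, adjusted P = 5.24e-06) and -1.32 (SE 0.07, adjusted P = 3.19e-11). For both genes the 3 groups did not overlap.

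Selenow stood apart from the other 9 genes. It read 69.8, 78.3 and 77.1 CPM with p-UPF1, against 60.4, 71.4 and 68.3 with IgG and 78.7, 80.1 and 80.8 in Input. The p-UPF1 libraries overlapped the IgG libraries and lay just below all Input libraries. Selenow was higher with p-UPF1 than with IgG by a log2FC of 0.17 (SE 0.06, adjusted P = 0.018), and over Input its log2FC of -0.09 (SE 0.06, adjusted P = 0.177) did not pass. The call over IgG was lost under 6 of 21 alternatives, over which the log2FC ranged from 0.01 to 0.24. With library size alone as the scale it was 0.01 (adjusted P = 0.899), without p-UPF1 library B 0.14 (adjusted P = 0.0748) and without IgG library C 0.10 (adjusted P = 0.103).

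**Figure D3:**
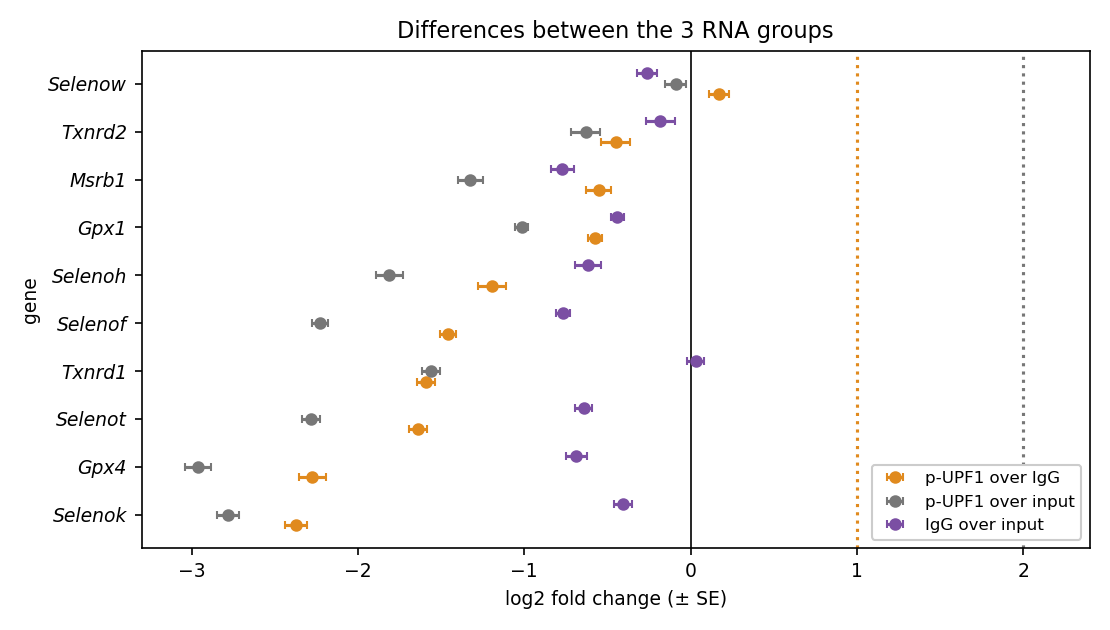
Log2FC of the 10 genes for p-UPF1 over each reference and for IgG relative to Input, with bars for the SE of the fit and lines for the fold minimums of 1 and 2. Selenow at 0.17 is the only gene above 0 over IgG, Selenok is lowest over IgG at -2.37 and Gpx4 is lowest over Input at -2.96.

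Set against one another within a library, which needs no scaling factor, the proportions of the 10 genes differed between the groups. Selenow made up 7.50% ± 0.148 of their summed counts in Input, 8.37% ± 0.697 with IgG and 20.2% ± 1.25 with p-UPF1 (SD, n = 3). Gpx1 made up 16.3% ± 0.0957 in Input, 16.1% ± 0.293 with IgG and 23.2% ± 0.428 with p-UPF1. Gpx4 went from 4.88% ± 0.173 in Input and 4.05% ± 0.123 with IgG down to 1.80% ± 0.101, and Selenok from 6.07% ± 0.33 and 6.12% ± 0.218 to 2.54% ± 0.108. For each of these 4 genes every p-UPF1 library lay outside the range of the other 6 libraries, and no test was run on the proportions. These proportions show unequal recovery among the 10 mRNAs and do not by themselves say which of them differed in amount.

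The IgG precipitate, which shows what RNA comes down without the specific antibody, already held less of most of these mRNAs than the lysate. Over Input, 8 of the 10 were lower in IgG, none was higher, and Txnrd1 and Txnrd2 did not pass, where 34.7% of all genes tested were lower and 18.2% higher. The median log2FC of the 10 was -0.53 and that of all genes -0.10. The lowest values were those of Selenof at -0.77 (SE 0.04, adjusted P = 1.54e-09) and Msrb1 at -0.77 (SE 0.07, adjusted P = 2.38e-07). Selenow, at -0.26 (SE 0.06, adjusted P = 0.00208), was lower too, but this call was lost with library size alone (-0.15, adjusted P = 0.0658) and with only the 2 groups compared (-0.15, adjusted P = 0.0546). Txnrd1 was at 0.03 (SE 0.05, adjusted P = 0.643), and it passed as higher in 5 alternatives, among them library size alone with 0.15 (adjusted P = 0.0149). Txnrd2 was at -0.18 (SE 0.09, adjusted P = 0.0881).

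The place of the UGA relative to the last junction was set beside the recovery of each mRNA, as a description. The 8 mRNAs with the UGA more than 50 nucleotides before the last junction ranged from -2.27 (Gpx4) to 0.17 (Selenow) over IgG, with a median of -0.88, and their median over Input was -1.57. Txnrd1 and Selenok, the mRNAs without such a junction, were at -1.59 and -2.37 over IgG, with a median of -1.98, and their median over Input was -2.17. Across the 10 genes the distance from the UGA to the last junction and the log2FC had a Spearman correlation of 0.0061 over IgG and -0.16 over Input. Among the other selenoprotein genes, the medians over IgG were 0.39 for the 3 tested with such a junction and -0.47 for the 5 without, and those over Input were -0.56 and -0.92. Across the 17 tested selenoprotein genes with a junction it was 0.011 and -0.20. These are descriptions across genes measured in the same libraries, and genes are not independent replicates.

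**Figure D4:**
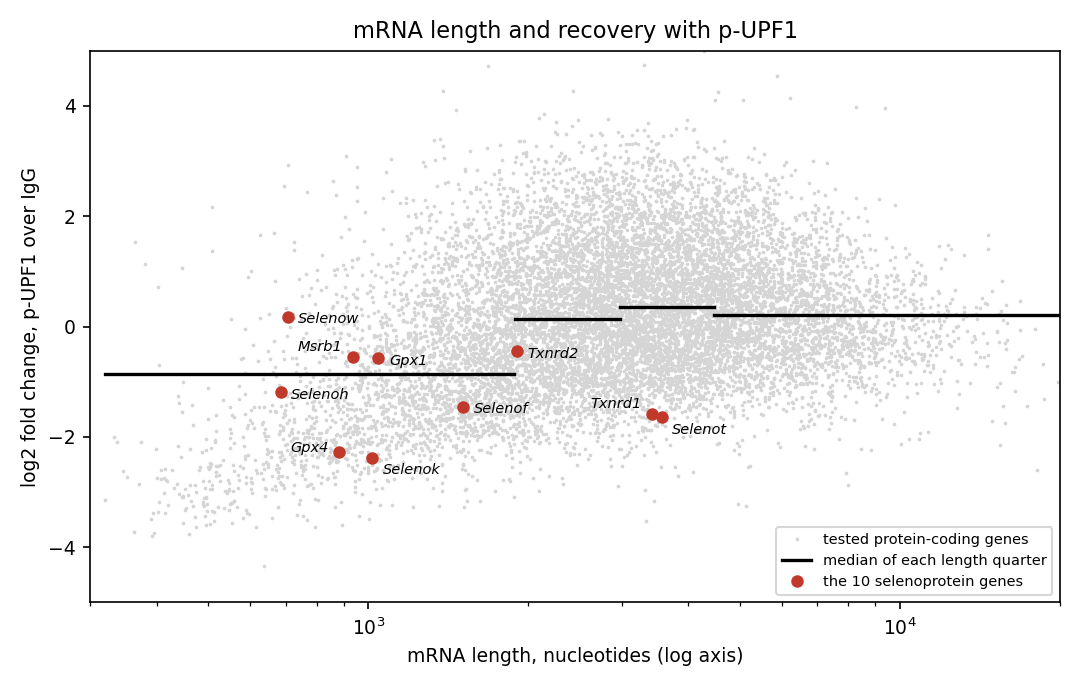
Log2FC with p-UPF1 over IgG against mRNA length in nucleotides (log axis) for tested coding genes in grey, with lines for the median of each of 4 length bins and the 10 selenoprotein genes in red (15 genes lie beyond the axes). The line of the shortest bin lies at -0.87, with Selenow at 0.17 above it and Selenok at -2.37 and Gpx4 at -2.27 below it.

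Of the 10 mRNAs 8 were shorter than the median coding gene, Txnrd1 and Selenot being the longer ones, and short mRNAs were recovered less with p-UPF1 across the transcriptome. Their median length was 1031.5 nucleotides, against 2974 for the 11905 tested coding genes, and their median 3′ untranslated region was 408 nucleotides against 1016. In the shortest of 4 length bins (320 to 1884 nucleotides), which held 7 of the 10 genes, the median log2FC was -0.87 over IgG and -1.12 over Input. The values of these 7 lay on both sides of the bin's median over IgG, with Selenow, Msrb1 and Gpx1 above and Selenoh, Selenof, Gpx4 and Selenok below. Txnrd2, in the second bin, was at -0.45 against a bin median of 0.14, and Selenot and Txnrd1, in the third, were at -1.64 and -1.59 against 0.35. Over all tested coding genes mRNA length and log2FC had a Spearman correlation of 0.297 over IgG and 0.357 over Input, and over the 10 genes it was -0.22 and -0.05. The part of length in the members' values was not tested.

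Of the 14 other selenoprotein genes 8 had enough reads to be tested, and none met both criteria. Over IgG 2 were higher, 4 lower and 2 did not pass, and over Input 1 was higher, 5 lower and 2 did not pass, with a median log2FC of -0.11 and -0.68. The shares over all genes tested were 40.4% higher and 42.2% lower over IgG and 40.8% and 42.6% over Input. Txnrd3, the reductase otherwise known from testis, was at -1.50 over IgG (SE 0.10, adjusted P = 5.44e-10) and Selenos, which takes part in clearing misfolded proteins from the endoplasmic reticulum, at -1.28 (SE 0.12, adjusted P = 2.20e-08). Sephs2, which makes the selenium donor and is a selenoprotein itself, was at -0.47 (SE 0.05, adjusted P = 1.72e-07), and Selenon, a calcium-handling protein of the endoplasmic reticulum, at 0.39 (SE 0.13, adjusted P = 0.00904) over IgG, a call lost with library size alone (adjusted P = 0.11) and upper-quartile factors (adjusted P = 0.0774), but -0.56 against Input (adjusted P = 0.000307). Gpx3, the secreted peroxidase, was higher at 2.83 (SE 0.48, adjusted P = 4.27e-05) on 20 to 26 counts in p-UPF1 and 2 to 4 in IgG.

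The factors that make selenocysteine and place it at UGA were all tested. Of the 9, 4 were higher and 4 lower with p-UPF1 over IgG, and likewise 4 and 4 over Input, with a median log2FC of 0.09 and -0.02. These shares are near those over all genes, 40.4% higher and 42.2% lower over IgG and 40.8% and 42.6% over Input. The higher genes were Sepsecs, which completes selenocysteine on its tRNA, at 1.53 over IgG (SE 0.07, adjusted P = 1.79e-12) and 1.59 against Input (SE 0.07, adjusted P = 8.23e-13), Sephs1, a homologue of Sephs2, at 1.22 and 1.01, Scly, which recovers selenium from selenocysteine, at 0.91 and 0.58, and Secisbp2, which binds the SECIS element, at 0.53 and 0.70. None of the 9 met both criteria. The lowest was Sars, the seryl-tRNA synthetase that charges the selenocysteine tRNA with serine, at -1.53 over IgG (SE 0.04, adjusted P = 6.63e-16), followed by Pstk, the kinase of the next step, at -1.04 (SE 0.18, adjusted P = 6.04e-05). Pstk overlaps Ikzf5 on the opposite strand. Eefsec was at 0.09 over IgG (adjusted P = 0.342) and -0.52 against Input (SE 0.08, adjusted P = 1.44e-05).

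Genes of the same families or reactions that use cysteine in place of selenocysteine were mostly at a low level, and 4 of 7 were tested. Msrb2, the mitochondrial counterpart of Msrb1, met both criteria, with a log2FC of 2.01 over IgG (SE 0.12, adjusted P = 1.26e-10) and 2.23 against Input (SE 0.12, adjusted P = 3.09e-11) at 16.3 ± 0.676 CPM with p-UPF1, against 4.03 ± 0.609 with IgG and 3.48 ± 0.231 in Input. Msrb1 itself was lower in the same libraries, as given above. Msrb3 was at 0.98 over IgG (SE 0.27, adjusted P = 0.00297) and 0.10 against Input (adjusted P = 0.711). Gpx7, a peroxidase of the endoplasmic reticulum, was at -0.45 over IgG (adjusted P = 0.0793) and -1.50 against Input (SE 0.21, adjusted P = 4.84e-06), and Msra, which reduces the other stereoisomer of oxidised methionine, at 0.21 (adjusted P = 0.146) and -0.34 (adjusted P = 0.0179). The call of Msra over Input was lost in 7 of 21 alternatives, among them DESeq2 (adjusted P = 0.0697) and leaving out p-UPF1 library A or C or Input library A or B (adjusted P of 0.0502 to 0.0888).

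The partners of these enzymes in the thioredoxin and glutathione systems also moved in both directions. Of 15 genes, 4 were higher and 9 lower with p-UPF1 over IgG, and 2 higher and 11 lower over Input, with a median log2FC of -0.84 and -0.88, where 40.4% of all genes tested were higher and 42.2% lower over IgG and 40.8% and 42.6% over Input. Txn1, the cytosolic thioredoxin that Txnrd1 reduces, had the lowest value at -3.24 over IgG (SE 0.05, adjusted P = 3.52e-18), with 20.3 ± 0.236 CPM against 192 ± 3.9 for IgG and 277 ± 5.54 for Input. The peroxiredoxins Prdx4 and Prdx1, which remove peroxides with thioredoxin's help, were at -2.57 and -1.82. At the other end, Txnip, which binds thioredoxin and blocks it, was the 1 gene of the 15 to meet both criteria, at 2.26 over IgG (SE 0.05, adjusted P = 2.25e-16) and 2.84 against Input (SE 0.05, adjusted P = 1.85e-17), with 878 ± 40.6 CPM against 183 ± 10.6 for IgG and 122 ± 3.34 for Input. Txnip overlaps the lncRNA Gm15441 on the opposite strand. Srxn1, which repairs overoxidised peroxiredoxins, passed as higher in both comparisons, with 1.64 over Input, under the minimum of 2.

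**Figure D5:**
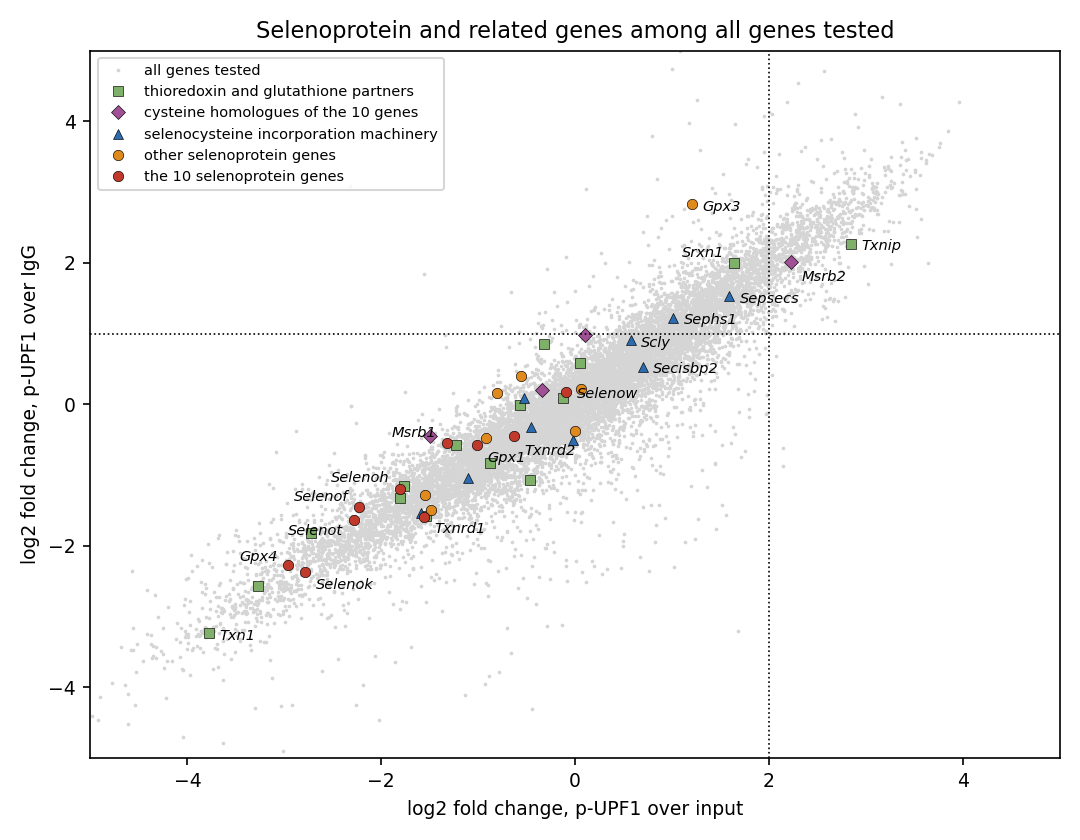
Log2FC with p-UPF1 over IgG against that over Input for all genes tested in grey and the selenoprotein and related genes by list, with dotted lines at the fold minimums of 1 and 2 (26 genes lie beyond the axes). Both axes share the p-UPF1 libraries, and of the listed genes Msrb2 and Txnip lie beyond both lines, while the 10 selenoprotein genes lie below both.

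For each of the 10 genes, the gene with the most similar profile was sought among the other tested genes with a mean of at least 10 CPM (8945 candidates), by the Euclidean distance between log2 CPM values centred over the 9 libraries. Selenot had the closest match, Tkt (transketolase), at a distance of 0.0874, followed by Selenow with Bloc1s2 at 0.107, Gpx1 with Aldh9a1 at 0.109 and Txnrd1 with Ythdf3 at 0.111. Selenof was closest to Emd at 0.121, Selenok to Cfdp1 at 0.132, Selenoh to Supt4a at 0.139 and Txnrd2 to Donson at 0.160. Gpx4 was nearest to Uqcrfs1, a subunit of respiratory complex III, at 0.182, and Msrb1 to Rpn2, a subunit of the oligosaccharyltransferase, at 0.207. None of these nearest genes was itself a selenoprotein gene. A distance under 1 was common, shared by 486 candidates for Gpx4 and by 2974 for Selenow, so each of these profiles was one that many other genes had as well.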

How the data were processed

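The authors deposited raw read counts per gene for 9 RIP-seq libraries, with genes as NCBI Gene numbers. The study's methods state that a small part of the lysate was kept as Input and that a directional kit was used. The submitters' processing notes name cutadapt, HISAT2, featureCounts and the build mm10. Versions, strand and multimapping settings for these libraries are not given in the sources used here. Reads carried no molecular identifiers, so amplified copies were counted separately. Replicate columns are lettered but replicates in the labels are numbered, so columns were assigned to groups only. Columns of no sample numbered 0.

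Of 27179 identifiers 25201 matched a RefSeq symbol on GRCm38. edgeR 4.0.16 (R 4.3.3) kept 13129 genes by filterByExpr (minimum count 10, minimum total 15), with 99.9% of counts. TMM factors, glmQLFit over all 9 libraries without covariates (6 residual degrees of freedom) and two-sided glmQLFTest with Benjamini-Hochberg adjustment over all genes tested gave each log2FC (prior count 0.125), and its SE came from the test statistic. The alternatives, 23 in all, included other scale factors and filters, DESeq2 1.42.0, limma-voom (limma 3.58.1) and leaving out each library. The script was tested on simulated data. Selenocysteine codons, exons and lengths came from RefSeq Select transcripts (levels per kilobase also from merged exons) on GRCm38, and sequences from that genome. For coding genes without a Select transcript, the length was that of the transcript with the longest coding part. Named genes were the 10 members, genes of the 4 related lists, Upf1 and Smg5 as checks and each member's nearest gene. The members and lists were chosen with earlier results of these data known. Some items within the lists are not reported here.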

Additional observations from a re-analysis of the deposited data

How the results depend on the processing

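Over 21 alternatives, 18 of the 20 log2FC values of the selenoprotein genes with p-UPF1 over IgG or Input kept their direction and call. No call in one direction became a call in the other. The count of lower genes stayed at 9 over IgG and at 9 to 10 over Input in 22 alternatives, the count lower in IgG over Input was 7 to 9, and the count meeting the criteria was 0 in all 23. The count of higher genes over IgG, 1 (Selenow), became 0 with library size alone, upper-quartile factors, TMM on an Input library, only the 2 groups compared or an adjusted P under 0.01, and 0 to 1 on leaving out 1 library. Over Input, Selenow lay between -0.16 and 0.04 and passed as lower with upper-quartile factors (adjusted P = 0.0278). The count higher in IgG over Input became 1 (Txnrd1) with library size alone, TMM on an Input or an IgG library, no low-count filter or only the 2 groups compared.

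The members' median over IgG was -1.49 with library size alone and -1.46 with upper-quartile factors, where the median of all genes moved to -0.19 and -0.17. Over Input it was -1.73 and -1.75 with these, -1.64 with DESeq2 size factors and with DESeq2, -1.57 with TMM on an IgG library and -1.55 without the filter. In IgG over Input it was -0.41 with library size alone, -0.42 with TMM on an Input or IgG library or only the 2 groups, and -0.44 without the filter.

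Other selenoprotein genes higher over IgG numbered 1 with library size alone, upper-quartile factors or a filter of 1 CPM in 3 libraries, and 2 to 4 on leaving out 1 library, with 4 without IgG library B. Over Input they numbered 2 without the filter, 0 with the filter of 1 CPM, and 0 to 1 on leaving out 1 library, with 0 without Input library C. Cysteine homologues lower over IgG numbered 1 (Gpx7) with library size alone, upper-quartile factors or TMM on an Input library, and 0 to 1 on leaving out 1 library, with 1 without IgG library C. Over Input they numbered 1 with TMM on an IgG library, no filter, DESeq2 or an adjusted P under 0.01, and 1 to 2 on leaving out 1 library. The cause of these moves was not tested.

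The columns carry the letters A, B and C in every group, which the labels' replicate numbers do not explain. Deviations from the group mean of log2 CPM correlated between libraries of the same letter at -0.01 to 0.05 (9 pairs, median 0.033). Between libraries of different letters they correlated at -0.06 to 0.02 (18 pairs, median -0.0095). The same-letter values were higher in the median, but all were small, so pairing by letter was left unsettled. The main fit did not pair the libraries. With the letter as a replicate block, an alternative added after seeing the data, the members counted 1 higher and 9 lower over IgG and 0 and 9 over Input, their medians were -1.32 and -1.69, and Selenow was at 0.17 over IgG (adjusted P = 0.00472) and -0.09 over Input (adjusted P = 0.0926). No call of a member changed with the block. Low counts limit Gpx3, Msrb3 and Gpx7, and TMM values do not show absolute amounts of RNA in a precipitate.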
